A study of Mus musculus with 3 samples.

Results

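Transcript levels of 38 genes for entry of proteins into the endoplasmic reticulum and for their folding there were compared in 3 cell populations, with 1 array each. The genes were grouped by function, and the list was drawn up with earlier results of these data known. They encode the signal recognition particle and its receptor, the translocation channel, signal peptidase, oligosaccharyl transferase, chaperones of the lumen and the membrane protein Bcap31. A gene was read from its brightest probe set, by mean level over the 3 arrays, that names that gene alone. This gave values for 37 of the 38 among 22180 genes in all. Pdia4 was the exception and is given below from a probe set that it shares.

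Naive female BALB/c mice aged 10 to 11 weeks gave the peritoneal cells, which were sorted into type 2 innate lymphoid cells, progenitors of mast cells and mature mast cells. Cells of 5 mice were pooled and sorted in successive rounds, and RNA of 100 cells of each population was amplified. All were gated as ST2 positive. Both mast cell populations were low or negative for lineage markers, high in c-kit, positive for FcεRI, intermediate for CD16/32 and negative for CD127 and CD25. What separated them was side scatter, low in progenitors and high in mature cells, together with integrin β7, which was high on progenitors and lower on mature cells. Innate lymphoid cells were negative for lineage markers, FcεRI and CD16/32, low or negative for c-kit, and positive for CD127 and CD25. With 1 array of pooled cells per population the data hold no replicates, and neither errors nor tests can be given. In such samples, fewer expressing cells and less RNA per cell cannot be told apart.

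Proteins bound for secretion, for granules or for membranes are recognised by the signal recognition particle as their signal sequence leaves the ribosome. The particle docks at its receptor, the chain passes through the Sec61 channel, signal peptidase removes the signal sequence and oligosaccharyl transferase adds N-linked glycans. Chaperones and disulfide isomerases of the lumen then fold the chain. Mast cells make large amounts of granule proteases by this route.

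Levels are RMA values on a log2 scale. Levels of different genes come from different probes and are not set against each other. A difference of 2 on this scale is 4-fold. Genes that differed by that much between a pair of arrays were counted if the brighter level exceeded the median of the single-gene probe sets of its own array. This median was 6.32 for the progenitor array and 6.30 for each of the others. These counts use the measured difference. A fold given for a gene with "at least" uses the median of the dimmer array in place of a level that lies under it, and counts with this floor are given where they differ. For the members, the counts at 4-fold and at 2-fold were the same with the floor. The shares of all genes set beside the member counts use the measured difference and were smaller with the floor. Of the 37 measured members, 25 were above the median in progenitors and 29 in each of the other populations, and 7 were above it on none of these arrays.

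The cell labels were checked against marker lists. Of 12 mast cell markers, 9 were higher by a measured 4-fold or more in mature mast cells than in innate lymphoid cells (7 with the floor), 4 were so in progenitors (3 with the floor), and 4 were lower by as much in progenitors than in mature cells, also with the floor. The genes of 2 sort markers set mature mast cells apart from innate lymphoid cells by over 4-fold, but not progenitors. Kit was at 6.89 in progenitors, 10.29 in the mature cells and 6.63 in the lymphoid cells, and Fcer1a, for a chain of FcεRI, was at 5.37, 8.87 and 5.05 and so below the median on both dimmer arrays. For all 12 mast cell markers together, the log2 of the summed linear level was taken. It was 13.1 for progenitors, 14.3 for the mature cells and 10.2 for the lymphoid cells. The brightest marker, Cpa3, weighs most in the sums of both mast cell populations. The median difference of the 12 markers between progenitors and innate lymphoid cells was 0.40. The part of these marker levels in the members' differences was not tested. Of 12 markers of innate lymphoid cells, 3 were lower by 4-fold or more in each mast cell population, and 2 of these with the floor. None of 38 measured markers of plasma cells, B cells, macrophages, T cells and granulocytes differed by 2-fold between any pair of arrays. For the 8 markers of plasma cells, which are rich in endoplasmic reticulum, the log2 of the summed linear level was 9.42 for progenitors, 9.35 for the mature cells and 9.36 for the lymphoid cells, and the array scale has no value of 0. The progenitor array had 619 genes at a level of 8 or more, against 788 on the mature mast cell array and 811 on the innate lymphoid cell array. This moves with the low member levels in progenitors given next, and its part in them was not tested.

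Few members differed by 4-fold or more, and each of those was lower by as much in progenitors than in another population. Of these, Sec61g was lowest in innate lymphoid cells, and Spcs3 was low in both mast cell populations. Compared with mature mast cells, progenitors had 3 of 37 members lower by 4-fold or more (Sec61g, Bcap31 and Spcs2), against 0.834% of all genes, and none was at least 4-fold higher, against 0.113%. Of the 693 genes whose mean level was 8 or more, 8.23% were lower by as much, and 5 members, including Bcap31 but not Sec61g or Spcs2, are of that level. Compared with innate lymphoid cells, progenitors had 4 of 37 members lower by as much (Bcap31, Spcs2, Spcs3 and Ppib), against 0.888% of all genes. Of the genes at a mean level of 8 or more, 15.7% were lower by as much. Of the 5 members of that level, 2 were (Bcap31 and Ppib). None of the 37 members was at least 4-fold higher, against 0.207% of all genes. These comparisons share the progenitor array. Between mature mast cells and innate lymphoid cells, Sec61g was at least 4-fold higher and Spcs3 at least 4-fold lower in mature cells, with 0.573% and 0.401% of all genes so placed.

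**Figure D1:**
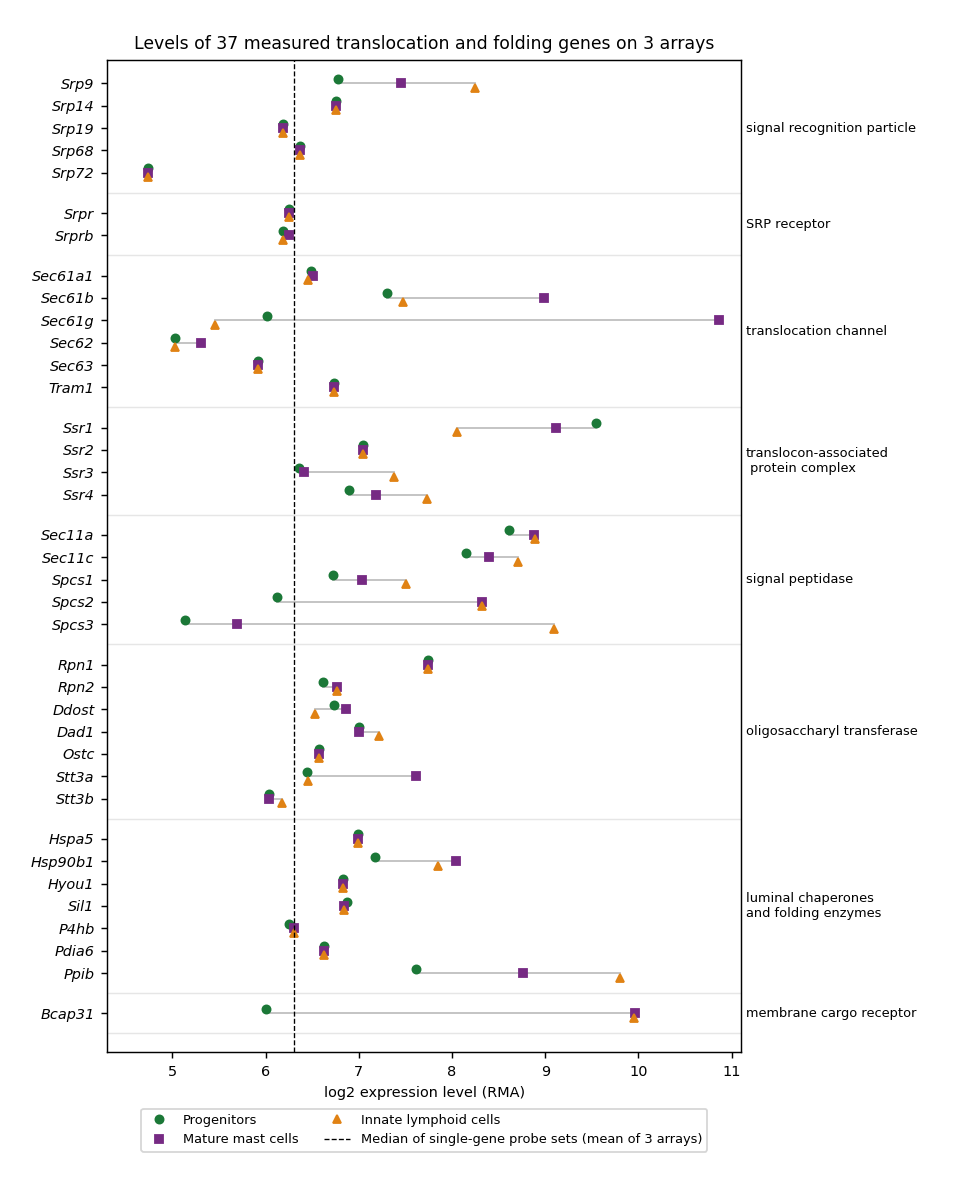
The log2 level of each of the 37 measured genes (rows, grouped by role) is plotted for progenitors (circles), mature mast cells (squares) and innate lymphoid cells (triangles), 1 array each, and the dashed line marks the median of single-gene probe sets. The points of most genes lie close together or coincide, while Sec61g stands out in mature mast cells, Spcs3 in innate lymphoid cells, and Spcs2 and Bcap31 are low in progenitors.

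At 2-fold, 6 members were lower in progenitors than in the mature cells and none was higher, against 1.93% and 0.509% of all genes. Beside Sec61g, Bcap31 and Spcs2 these were Sec61b, Stt3a and Ppib. Of genes at a mean level of 8 or more, 20.8% were lower by as much and 5.48% higher. Of the 5 members of that level, 2 were lower (Ppib and Bcap31). In the comparison of progenitors with innate lymphoid cells, 6 were lower (Srp9, Ssr3, Spcs2, Spcs3, Ppib and Bcap31) and Ssr1 was higher, against 1.88% and 0.766%. At a mean level of 8 or more, the shares of genes were 25.4% and 9.38%. Of the 5 members of that level, 2 were lower (Ppib and Bcap31) and Ssr1 was higher. Mature mast cells had 4 members at least 2-fold above innate lymphoid cells (Sec61b, Sec61g, Ssr1 and Stt3a) and 2 below (Spcs3 and Ppib), against 1.34% and 1.26%. At a mean level of 8 or more, the shares of genes were 7.94% and 13.6%, and of the members Ssr1 was above and Ppib below. In all, 10 members reached 2-fold in at least 1 comparison (27.0%, against 4.12% of all genes), and 27 did not. A share above that of all genes was not particular to the members. In the further lists of endoplasmic reticulum genes given below, 19 of 146 genes reached 2-fold. With a gene's probe sets averaged, Sec61b no longer reached 2-fold in either comparison, nor did Ssr1 between progenitors and innate lymphoid cells. After quantile normalization Ppib no longer did between mature mast cells and innate lymphoid cells.

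**Figure D2:**
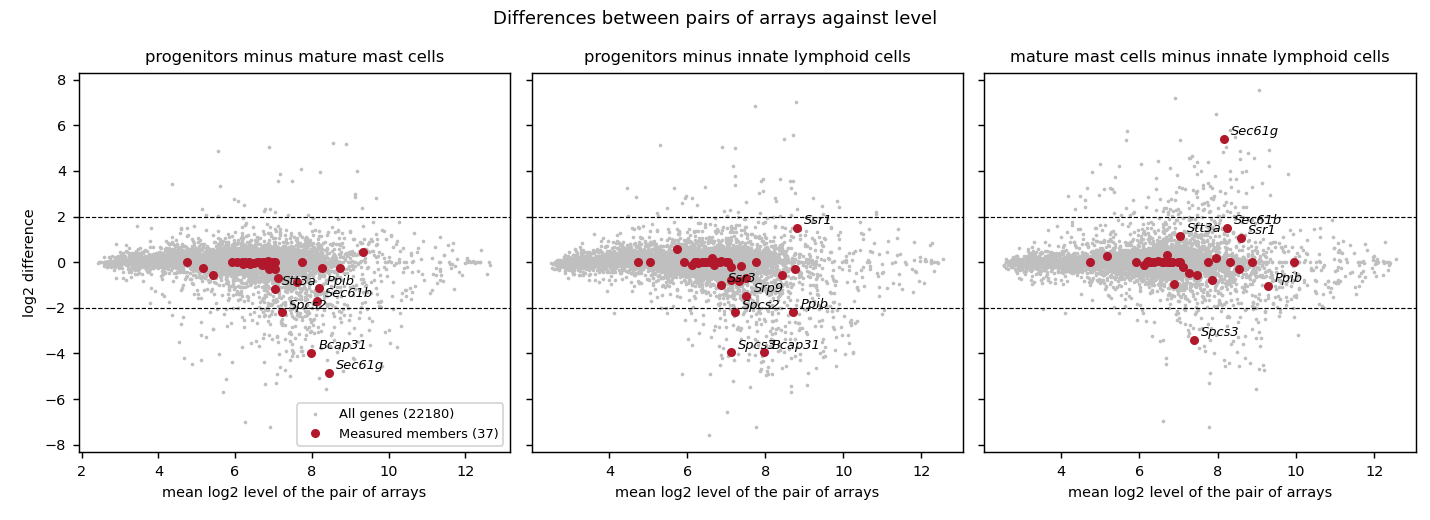
The log2 difference (vertical axis) is plotted against the mean log2 level of the pair of arrays (horizontal axis) for all 22180 genes (grey) and the 37 measured members (red) in each of the 3 comparisons, with dashed lines at 4-fold. Named members differ by at least 2-fold, and in the comparison of progenitors with mature mast cells each named member lies below 0.

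Identical values on different arrays were common. The deposited levels of 13 members were equal on all 3 arrays (35.1%, against 47.9% of all genes and 7.79% of those at a mean level of 8 or more), and 8 more were equal on 2 arrays. The 13 were Srp14, Srp19, Srp68, Srp72, Srpr, Sec63, Tram1, Ssr2, Rpn1, Ostc, Hspa5, Hyou1 and Pdia6, at levels from 4.73 to 7.75. For 12 of these, all but Hspa5, between 1 and 143 other probe sets of an array held exactly the same value. Over the whole table, 52.2% to 54.2% of the probe sets of an array shared their value with another. A tie in these values is therefore not taken as equal expression, and the smaller differences of neighbouring members are open to the same limit.

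**Figure D3:**
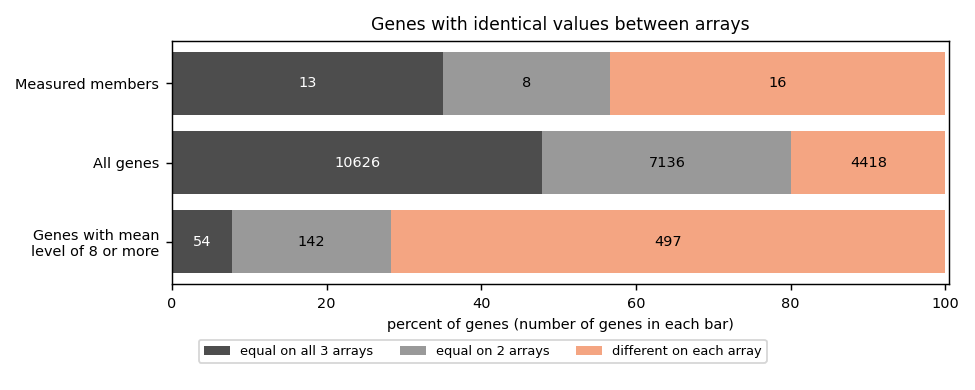
Bars give the percentage of genes whose deposited values are identical on all 3 arrays, identical on 2 arrays or different on each, for the 37 measured members, all genes and genes whose mean log2 level was 8 or more, with gene numbers printed in the bars. Of the members, 13 are identical on all 3 arrays and 16 differ on each.

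Most members that differed at all between the mast cell populations were lower in progenitors, many by little. Of 22 members not tied between the mast cell populations, 20 were lower in progenitors, against 30.2% of the 9258 genes not tied, and this count was also 20 after quantile normalization. The share of all genes depended on level. It was 24.7% at mean levels of 6 to 7, where 8 of 9 such members were lower, 36.8% at 7 to 8, where 7 of 7 were, and 56.9% at 8 and above, where 4 of 5 were. The remaining member, below 6, was lower too. The exceptions were Ssr1 and Sil1. Against innate lymphoid cells, 17 of 22 members were lower in progenitors, against 38.5% of genes. Here too the share of genes depended on level. It was 36.0% at 6 to 7, where 6 of 9 members were lower, and 46.2% at 7 to 8, where 7 of 8 were. At 8 and above it was 57.8%, and 4 of 5 members were lower. Between mature mast cells and innate lymphoid cells, 10 members were lower and 10 higher in mature cells. Of the 8728 genes not tied on this pair, 58.7% were lower in mature cells. The median difference of the 37 members was -0.05 between progenitors and mature mast cells and 0 in the other comparisons, and over all genes it was 0 in each.

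The signal recognition particle binds the signal sequence and pauses translation. Srp9, a subunit of the domain that pauses translation, was at 6.77 in progenitors, 7.45 in the mature cells and 8.24 in the lymphoid cells. It was thus 2.77-fold lower in progenitors than in innate lymphoid cells, and it was the only one of the 5 measured subunits to differ between arrays. Its partner Srp14 was at 6.75 on each array, and the subunits Srp19, Srp68 and Srp72 were tied as well. Of the receptor, the α subunit gene Srpr was tied at 6.25, and the β subunit gene Srprb was at 6.18, 6.25 and 6.18, in the order of progenitors, mature cells and lymphoid cells. That order is kept below wherever 3 levels are given together.

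The Sec61 channel consists of the pore-forming α subunit and the small β and γ subunits, and the genes of the small subunits were highest in mature mast cells. The γ subunit gene Sec61g was at 6.02, 10.86 and 5.46. Its level in mature mast cells was at least 23.3-fold above progenitors and at least 23.5-fold above innate lymphoid cells, whose levels were both below the array medians. The β subunit gene Sec61b was at 7.30, 8.99 and 7.47, which is 3.23-fold above progenitors and 2.86-fold above innate lymphoid cells. The α subunit gene Sec61a1 was at 6.49, 6.51 and 6.46, so the 3 subunit genes of this complex did not differ alike.

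A second probe set did not show the same difference for either small subunit. The probe set that names Sec61g together with 4 other loci was at 7.16, 7.16 and 7.14. The dimmer single-gene probe set of Sec61b was tied at 6.20 on the 3 arrays, below each array's median. The height of both genes in mature mast cells therefore rests on 1 probe set each.

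The sequences before the starts of Sec61g and Sec61b are shown because these genes shared their place above the other populations. They are the 250 bases before the start that RefSeq gives in build GRCm38.p6, at chr11:16508485-16508734 on the minus strand for Sec61g and at chr4:47474411-47474660 on the plus strand for Sec61b. Capitals mark CCAAT, the core of a common promoter element, on either strand (ATTGG on the other).
Sec61g: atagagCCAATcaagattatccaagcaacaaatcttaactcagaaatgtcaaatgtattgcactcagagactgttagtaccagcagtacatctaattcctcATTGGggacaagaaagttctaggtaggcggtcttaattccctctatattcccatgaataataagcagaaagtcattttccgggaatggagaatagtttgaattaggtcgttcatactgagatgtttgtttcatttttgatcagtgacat
Sec61b: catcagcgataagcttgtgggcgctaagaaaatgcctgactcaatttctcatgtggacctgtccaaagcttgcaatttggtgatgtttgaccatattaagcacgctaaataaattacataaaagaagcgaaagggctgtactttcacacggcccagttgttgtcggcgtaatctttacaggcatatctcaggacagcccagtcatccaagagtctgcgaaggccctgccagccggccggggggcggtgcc
The window of Sec61g held 2 such matches and that of Sec61b none.

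Of the factors that assist the channel, Sec62 was at 5.03, 5.30 and 5.03 and below the median on each array. Its partner Sec63 was tied at 5.91, and Tram1, a membrane protein next to nascent chains, was tied at 6.73. The translocon-associated protein complex, which helps some signal sequences to open the channel, gave different orders for its subunits. Ssr1 was at 9.55, 9.12 and 8.05, which made it the only member at least 2-fold higher in progenitors than in innate lymphoid cells, at 2.82-fold. With its probe sets averaged this log2 difference was 0.89, under 2-fold, and no member was then 2-fold higher. Its dimmer probe set was at 6.35, 7.91 and 6.07, and so gave mature mast cells, not progenitors, as the highest. The difference between progenitors and mature mast cells has opposite signs on the 2 probe sets, 0.43 and -1.56. Ssr3 was at 6.35, 6.41 and 7.37 and Ssr4 at 6.89, 7.19 and 7.73, both highest in innate lymphoid cells, and Ssr2 was tied at 7.05.

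**Figure D4:**
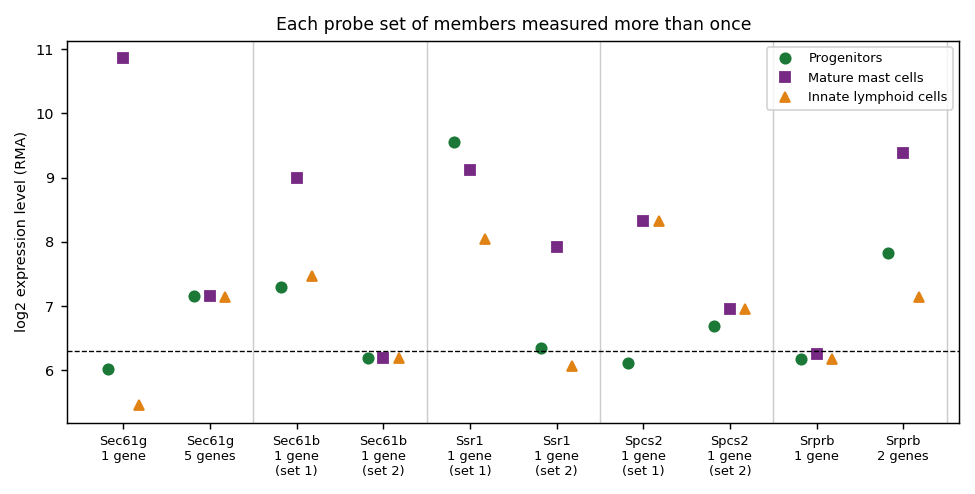
The log2 level of each probe set is plotted for the 5 members read by more than 1 probe set, for progenitors (circles), mature mast cells (squares) and innate lymphoid cells (triangles), with the number of genes each probe set names. Sets of the same gene differ in the spread between arrays: those of Sec61g range from 5.46 to 10.86 on the set naming 1 gene and from 7.14 to 7.16 on the set naming 5.

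Each of the 5 signal peptidase genes was lowest in progenitors and either highest in innate lymphoid cells or tied there with mature mast cells. The catalytic subunit genes differed little, Sec11a at 8.61, 8.88 and 8.89 and Sec11c at 8.15, 8.39 and 8.71. The accessory subunit gene Spcs1 was at 6.73, 7.03 and 7.51, which is 1.72-fold lower in progenitors than in innate lymphoid cells. Spcs2 was at 6.12 in progenitors and at 8.32 in both other populations, a difference of at least 4.02-fold. Its other probe set gave the same order but a smaller gap, at 6.69, 6.96 and 6.96. That set is dimmer by mean level over the arrays but brighter in progenitors. The 4-fold difference is thus that of the set chosen by mean level. The RefSeq table also lists a pseudogene, Spcs2-ps, and whether its transcripts reach these probes was not tested. Spcs3 separated innate lymphoid cells from both mast cell populations, at 5.14, 5.69 and 9.09. That is at least 6.86-fold below innate lymphoid cells in progenitors and at least 6.95-fold in mature mast cells. The median difference of the 5 genes was -0.30 between progenitors and mature mast cells and -0.78 between progenitors and innate lymphoid cells.

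Bcap31, a membrane protein that sorts other membrane proteins for exit from the endoplasmic reticulum or for degradation, had the same pattern as Spcs2 with a wider gap. Its levels were 6.00, 9.96 and 9.95, so that progenitors were at least 12.5-fold below mature mast cells and at least 12.4-fold below innate lymphoid cells. The windows before the starts of Bcap31 (chrX:73716205-73716454, minus strand) and Spcs2 (chr7:99858884-99859133, minus strand) are shown for this shared pattern, from the same source and with the same capitals.
Bcap31: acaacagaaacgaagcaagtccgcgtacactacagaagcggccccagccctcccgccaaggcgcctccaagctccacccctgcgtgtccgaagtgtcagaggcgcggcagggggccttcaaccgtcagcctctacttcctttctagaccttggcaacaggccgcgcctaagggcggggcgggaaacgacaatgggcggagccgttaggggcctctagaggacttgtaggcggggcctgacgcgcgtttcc
Spcs2: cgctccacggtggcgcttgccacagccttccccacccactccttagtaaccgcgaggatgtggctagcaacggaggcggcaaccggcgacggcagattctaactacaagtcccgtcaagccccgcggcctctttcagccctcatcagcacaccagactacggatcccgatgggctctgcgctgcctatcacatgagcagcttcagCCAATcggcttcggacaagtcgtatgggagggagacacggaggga
The window of Spcs2 held 1 match, 45 to 41 bases before the start, and that of Bcap31 none before its start.

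Most genes of oligosaccharyl transferase were close together on the 3 arrays. Stt3a, the catalytic subunit that glycosylates chains as they enter, was at 6.45, 7.61 and 6.46, which is 2.24-fold above progenitors and 2.22-fold above innate lymphoid cells in mature mast cells. The other catalytic subunit gene, Stt3b, was at 6.04, 6.04 and 6.18, below each array's median. Among the remaining subunits, Rpn1 was tied at 7.75 and Ostc at 6.57. Rpn2 was at 6.62, 6.76 and 6.76, Ddost at 6.73, 6.86 and 6.53 and Dad1 at 7.00, 7.00 and 7.22. Only Stt3a of the 7 reached 2-fold in a comparison, and none reached 4-fold.

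Among chaperones and folding enzymes of the lumen, Ppib differed most. It encodes cyclophilin B, a prolyl isomerase, and was at 7.61, 8.77 and 9.80, which puts progenitors 2.22-fold below mature mast cells and 4.55-fold below innate lymphoid cells. Hsp90b1, the HSP90 chaperone of the lumen, was at 7.17, 8.04 and 7.85, with progenitors 1.83-fold below mature mast cells. The HSP70 chaperone gene Hspa5 was tied at 6.99, and its nucleotide exchange factors Hyou1 and Sil1 were tied at 6.82 and at 6.88, 6.84 and 6.84. The disulfide isomerase gene Pdia6 was tied at 6.63 and P4hb was at 6.25, 6.31 and 6.31. Pdia4, another isomerase of this family, was read only by a probe set that also names Mir704, at 5.61, 6.14 and 5.75.

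Hspa5, Hsp90b1 and Pdia6 are known targets of the unfolded protein response, through the ER stress element in their promoters. Their elements are shown because 2 of them were tied here, and Hsp90b1 was lowest in progenitors, by under 2-fold. A tie is not taken as equal expression, so whether these genes differ in behaviour was not settled. RefSeq windows of 300 bases (250 before and 50 after the start, GRCm38.p6) were found for 28 of the 38 members, as 29 windows. The element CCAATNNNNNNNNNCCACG was searched on both strands, and it contains both of its parts, CCAAT and CCACG, which were also searched alone. Each match is printed on its own strand with those parts in capitals, at chr2:34772025-34772043 on the plus strand for Hspa5, at chr10:86705638-86705656 on the minus strand and chr10:86705533-86705551 on the plus strand for Hsp90b1, and at chr12:17266491-17266509 on the plus strand for Pdia6.
Hspa5: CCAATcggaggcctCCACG
Hsp90b1, minus strand: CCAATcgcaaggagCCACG
Hsp90b1, plus strand: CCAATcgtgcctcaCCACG
Pdia6: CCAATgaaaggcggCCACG
The element was in 3 of the 29 member windows (10.3%), those of these genes, and in 0.119% of all 32851 windows of the table. These genes were already known as targets through this element, so the share is not read as an enrichment among the members. CCAAT was in 65.5% of member windows and 37.4% of all, and CCACG in 69.0% and 32.8%. The table includes noncoding genes, and the windows were not matched on base composition.

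Genes that act beside these were taken from 6 further lists with 146 measured genes. In these, progenitors had 4 genes lower than mature mast cells by a measured 4-fold or more (2.74%, against 0.834% of all genes) and none higher (against 0.113%). With the floor 2 were lower (1.37%, against 0.631% of all genes), since Edem3 and Bet1 fell short. Against innate lymphoid cells 2 were lower (1.37%, against 0.888%) and none was higher (against 0.207%). These counts were the same with the floor, where the shares of all genes were 0.784% and 0.153%. Between mature mast cells and innate lymphoid cells 3 were higher (2.05%, against 0.573%) and 1 was lower (0.685%, against 0.401%). With the floor 1 was higher (0.685%, against 0.397% of all genes), again without Edem3 and Bet1, and 1 was lower (0.685%, against 0.325%). The median difference was 0 in each comparison, and 84 or 85 genes were tied on each pair of arrays. By the measured difference, 19 of the 146 reached 2-fold in at least 1 comparison, and some fell short with the floor. These were 5 of 20 genes of ER-associated degradation, 6 of 32 of transport to the Golgi and 4 of 29 other folding enzymes and lectins. The remaining lists gave 3 of 23 for translocation and insertion, 1 of 23 for glycan transfer and precursors, and 0 of 19 for the unfolded protein response.

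Of 29 other folding enzymes and lectins, Pdia3 reached 4-fold. It encodes the disulfide isomerase that acts with the lectin chaperones calnexin and calreticulin, and it was at 5.15, 9.16 and 9.16, the pattern of Bcap31 and Spcs2, at least 7.18-fold lower in progenitors. The brightest gene of this list, Fkbp2, another prolyl isomerase, was tied at 10.07. Of 23 other translocation and insertion genes, Emc7, a subunit of the membrane insertion complex EMC, was at 6.95, 9.27 and 6.50. It was 4.99-fold above progenitors and 6.85-fold above innate lymphoid cells in mature mast cells, which were also highest for Sec61b and Stt3a, whereas its dimmer probe set was tied at 4.73. None of 23 other genes of oligosaccharyl transferase and glycan precursors reached 4-fold, with Dpm2, a subunit of the mannose donor synthase, tied at 7.32.

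None of 19 sensors and factors of the unfolded protein response reached 2-fold in any comparison, and 9 were tied on all 3 arrays. Of all genes 4.12% reached 2-fold in a comparison and 47.9% were tied on all 3 arrays, so these counts are near those of all genes. Xbp1, a transcription factor of this response, was at 6.47, 6.38 and 6.95. Atf4 was at 7.48, 7.60 and 7.70, and Ddit3, which encodes the stress factor CHOP, at 8.50, 8.52 and 8.52. Xbp1 and Atf4 were chosen after their values were seen.

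**Figure D5:**
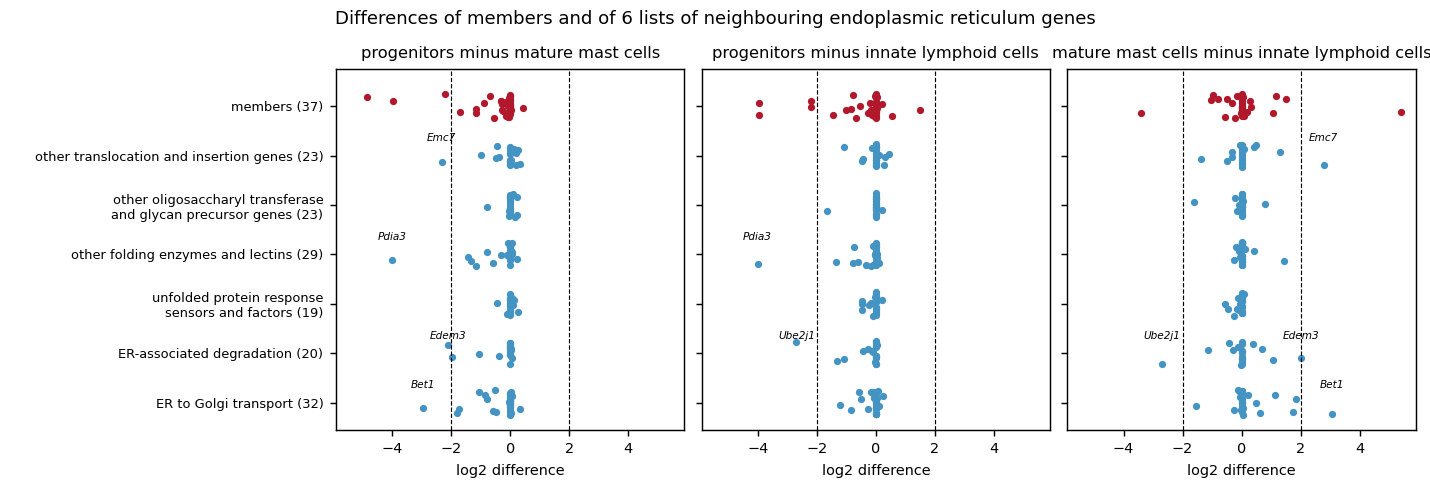
Points give the log2 difference of each measured gene (horizontal axis) for the 37 members (red) and for 6 lists of other endoplasmic reticulum genes (blue, list sizes in brackets) in the 3 comparisons, with dashed lines at 4-fold and vertical scatter within a row added for legibility. Most points lie at or near 0, and named genes of the blue lists reached a measured difference of 4-fold, which Edem3 and Bet1 did not reach with dim levels set to the array median.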

How the data were processed

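Transcript levels were measured on 1 whole-transcript array per population. The authors deposited log2 levels of 41345 probe sets. The submitters' processing notes name RMA as the method, without a version. The log base was read from the values. RMA summarises the probes of a probe set by median polish, which can return equal values for arrays. Amplification from 100 cells can lose transcripts, and the number of arrays limits the precision. Probe-level signals were not used here.

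Gene names came from the platform's table, in which 23521 probe sets name 1 gene. Differences and counts were computed in Python 3.11.15 with pandas 2.3.3, and the counting was tested on simulated data. Other list genes were matched by symbol, then by a synonym in the RefSeq table of GRCm38.p6. Every member may be named. Values of all arrays are given for members that reached 2-fold, and other lists are represented by genes past 4-fold and their brightest gene. Members and lists were chosen with earlier results of these data known. Counts were repeated with dim levels set to their array's median. Alternatives were a floor at the 75th percentile or none, quantile normalization, median centring, the mean of a gene's probe sets, and use of probe sets naming several genes.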

Additional observations from a re-analysis of the deposited data

How the results depend on the processing

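The 6 counts of members past 4-fold and the 3 median differences were recomputed under the alternatives, 48 values in all, and 47 stayed within 1.5 times the count, or within 0.1 of the median. With probe sets naming several genes used too, the count of members at least 4-fold higher in mature mast cells than in innate lymphoid cells was 2 instead of 1. The added gene was Srprb, read then from a probe set that also names Trf, the transferrin gene, at 7.83, 9.39 and 7.15. Of 114 values for single members past 2-fold, 111 kept their direction and their side of 4-fold and none changed sign. Many of these had little or no room to change. A changed floor leaves a difference as it is, and averaging acts only on the 3 members with 2 or more single-gene probe sets. The totals are therefore not read as a measure of robustness. Spcs2 was at -1.24 in both progenitor comparisons with its probe sets averaged, since its dimmer probe set differed less. Ppib was at -1.95 against innate lymphoid cells after quantile normalization, just under 4-fold. Counts at 2-fold were recomputed after seeing the data, and of the same 114 values 110 stayed past 2-fold, with the same limit. With probe sets averaged, Sec61b was at -0.85 between progenitors and mature mast cells and at 0.76 between mature mast cells and innate lymphoid cells, and Ssr1 was at 0.89 between progenitors and innate lymphoid cells. After quantile normalization Ppib was at -0.85 between mature mast cells and innate lymphoid cells. Srprb was added in 2 comparisons with probe sets naming several genes. The counts of members lower among those that differ, recomputed after quantile normalization and also chosen after seeing the data, moved by at most 1. No replicate could be left out, and no paired analysis was possible because each population has 1 array.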

Other observations

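Genes of the steps after folding held a few further differences. Of 20 measured genes of ER-associated degradation, Ube2j1, a ubiquitin-conjugating enzyme of the endoplasmic reticulum membrane, was at 6.41 in progenitors, 6.40 in the mature cells and 9.10 in the lymphoid cells. That is 6.47-fold and 6.50-fold lower in the mast cell populations, and Spcs3 was likewise highest in innate lymphoid cells. Edem3, which trims mannose from misfolded glycoproteins, was highest in mature mast cells, at 6.15, 8.27 and 6.26, at least 3.86-fold above progenitors and at least 3.90-fold above innate lymphoid cells. The brightest gene of this list, Vcp, the ATPase that extracts proteins for degradation, was at 9.31, 9.28 and 9.28.

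Of 32 genes of transport from the endoplasmic reticulum to the Golgi, Bet1, a SNARE of this route, was at 3.94, 6.89 and 3.83, highest in mature mast cells. Its dimmer levels were far below the array medians, and with these medians in their place it was at least 1.49-fold above progenitors and under 2-fold above innate lymphoid cells. Tmed9, a cargo receptor of this route, was at 10.60, 11.13 and 11.09.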
